A study of Mus musculus with 9 samples.

Results

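The clustered protocadherin genes lie in 3 neighbouring families on mouse chromosome 18, *Pcdha*, *Pcdhb* and *Pcdhg*, and 100 of the 225769 merged CTCF peaks in the deposited table fell on them. A peak was taken where it overlapped a family span, from the first gene start to the last gene end with 20 kb on each side: chr18:36910184-37207661 for *Pcdha*, chr18:37244938-37544479 for *Pcdhb* and chr18:37641793-37861873 for *Pcdhg* (GRCm38). *Pcdha* held 29 peaks, *Pcdhb* 37 and *Pcdhg* 34. The choice used position and gene names, not CTCF values. The spans carry 57 gene names, 58 gene identifiers in GENCODE M21, since that release gives the name *Pcdha11* to the gene that RefSeq calls *Pcdha10*. The RefSeq name is used here.

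CTCF, the zinc finger protein that anchors chromatin loops, was mapped by ChIP-seq in primary neural stem cells (NSCs) from the cortices of female C57Bl/6 mouse embryos at E14.5. The control lines (3 libraries) were homozygous for a GFP tag on wild-type *Smchd1*, and the MommeD43-GFP lines (3 libraries) were homozygous for the same tag on an allele with the MommeD43 point mutation. The *Smchd1* del/del lines (2 libraries) carried no GFP tag and were made in culture, by retroviral Cre and drug selection of cells with a floxed *Smchd1* allele, so the null differed from control in tag, virus and selection as well as in *Smchd1*, and these cannot be told apart here. A single input library came from a control line and has no value in the table. ChIP values cannot check the labelled cell type by its marker RNAs. The 3 value columns are pooled: each is the authors' mean over the libraries of a genotype of the log2 number of reads in the peak per M library reads, taken over the whole peak and not per unit of length. The spread between libraries is not in the table, and differences are therefore given without p-values. The ± given with a difference is a counting standard error (SE) on the log2 scale, worked out from reads decoded from the table, and it covers the counting of reads alone. A peak of the 3 families held a median of 58.6 reads per library in control, 69.4 with MommeD43-GFP and 77.1 without SMCHD1.

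Clustered protocadherins are cell surface adhesion proteins that give each neuron its own identity. In *Pcdha* and *Pcdhg*, each gene has its own promoter and a large variable exon for the extracellular part, which is spliced to 3 constant exons shared by the whole family, while each *Pcdhb* gene lies mostly within 1 exon and has no constant exons. A neuron expresses few of the alternate genes, chosen by the looping of their promoters to distant enhancers through CTCF and cohesin, and the C-type genes (*Pcdhac1*, *Pcdhac2*, *Pcdhgc3*, *Pcdhgc4* and *Pcdhgc5*) are used more broadly. Most variable exons have a CTCF site at the promoter, whereas the promoters of *Pcdhac2*, *Pcdhb1*, *Pcdhgc4* and *Pcdhgc5* lack the conserved element that holds it. The known *Pcdha* enhancers are HS7, between the last constant exons, and HS5-1, past them. SMCHD1, a non-canonical SMC protein, is known as a repressor of these genes. All 58 gene identifiers lie on the plus strand, so a motif on the plus strand points along transcription.

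Of the 100 peaks, 54 were promoter peaks, lying within 1 kb of a gene start (15 in *Pcdha*, 21 in *Pcdhb* and 18 in *Pcdhg*). A further 17 lay on the rest of a variable exon, 11 between variable exons, 4 on constant exons, 1 between constant exons, 9 upstream of the first gene and 4 downstream of the last. A promoter peak was present at 52 of the 58 genes: at 14 of 14 in *Pcdha*, 21 of 22 in *Pcdhb* and 17 of 22 in *Pcdhg*. *Pcdhb1*, *Pcdhgc4* and *Pcdhgc5* were among the 6 without one, and *Pcdhga7*, *Pcdhgb4* and *Pcdhga9* were the others. *Pcdhac2* did have a peak, of 3300 bp, with a level of 1.94 in control NSCs, against 1.78 for MommeD43-GFP and 1.53 for *Smchd1* del/del.

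Promoter peaks were strongest in *Pcdha* and weakest in *Pcdhb*. Per kb of peak, and averaged over the 3 columns, the median promoter level was 0.58 in *Pcdha*, 0.40 in *Pcdhg* and 0.26 in *Pcdhb* on the log2 scale, against 0.29 over the 12987 promoter peaks of protein-coding genes and -0.03 over all peaks. *Pcdhac1* (chr18:37089301-37092450) was the strongest of the 100 peaks on this scale, at 1.63 per kb. Its values over the whole peak, the scale used from here on, were 3.39 in control NSCs, 3.26 for MommeD43-GFP and 3.22 for *Smchd1* del/del. The alternate gene *Pcdha8* (1.29 per kb) was at 2.69, 2.89 and 3.05 in that order (control, MommeD43-GFP, null) and *Pcdha7* (1.15 per kb) at 2.52, 2.57 and 2.66, so both were lowest in control, whereas *Pcdhac1* was highest there. In *Pcdhg* the C-type gene *Pcdhgc3* (1.21 per kb) had nearly level values of 3.12, 3.13 and 3.10. Per kb, *Pcdhgb6* (1.17) and *Pcdhgb7* (0.76) came next among *Pcdhg* promoters. By value over the whole peak, the alternate genes *Pcdhga11* (0.34 per kb) and *Pcdhga12* (0.49 per kb) came next, with peaks of 3450 and 3000 bp. *Pcdhga11* was at 2.04, 2.38 and 1.94, and *Pcdhga12* at 2.09 in control and 1.84 in the null, with MommeD43-GFP above control by 0.21 ± 0.08, so both were highest in MommeD43-GFP. *Pcdhb8* had the largest value in its family, at 2.33, 2.23 and 2.60, followed by *Pcdhb12* at 1.80, 1.85 and 2.10 and *Pcdhb11* at 1.46, 1.01 and 2.40, and the null was highest at each. Per kb the order was *Pcdhb11* (1.04), *Pcdhb8* (0.73) and *Pcdhb12* (0.26).

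**Figure D1:**
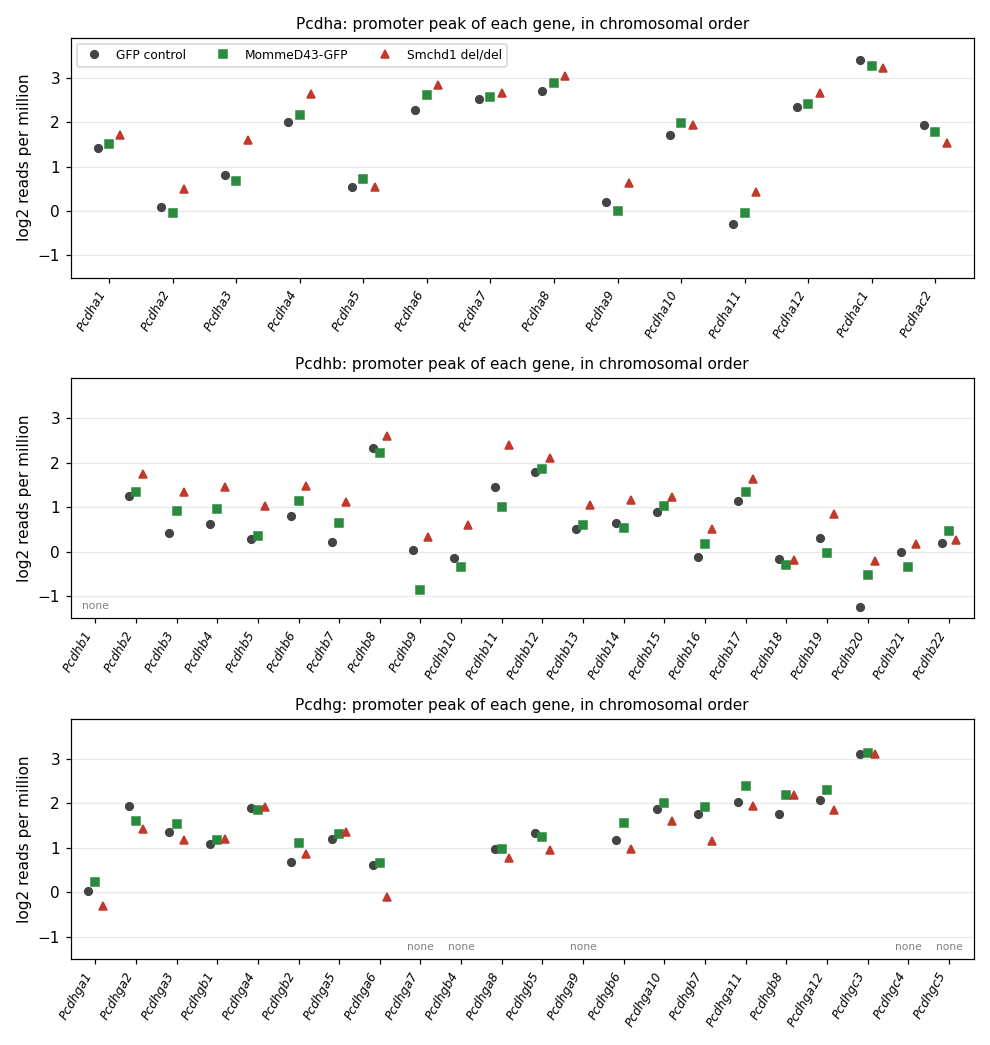
CTCF level (log2 reads per M over the whole peak, y axis) at the promoter peak of each gene in chromosomal order (x axis), for GFP control (circles), MommeD43-GFP (squares) and *Smchd1* del/del (triangles), with the highest peak drawn where a gene has 2 and "none" where it has no promoter peak. Each point is the authors' mean for a genotype. Triangles lie above circles at 20 of 21 *Pcdhb* promoters, while at *Pcdhac1*, *Pcdhac2* and most *Pcdhg* promoters they lie below.

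The core CTCF motif differed between the families in its strand and in the peaks that held it. It lay in 13 of the 100 peaks (13.0%), against 3.79% of all peaks, which are shorter (median 750 bp, against 1350 bp in the 3 families). Its share was 7.28% in peaks whose level was at least the median of all, 8.34% at coding-gene promoters and 10.1% at coding-gene promoters of at least that level. In *Pcdha* all 6 matches were on the plus strand and in promoter peaks, at *Pcdha1*, *Pcdha4*, *Pcdha6*, *Pcdha7*, *Pcdha8* and *Pcdha12*. These 6 had a median level of 0.94 per kb and a median length of 2850 bp. The 9 *Pcdha* promoter peaks without a match had 0.20 per kb and 1050 bp, and the part of peak width in this was not tested. Among these 9 was *Pcdhac1*, the strongest of the 100 peaks per kb (1.63). The 6 peaks reach from the promoter into the variable exon. Matches were counted per peak, so a match in them may lie in either. In *Pcdhb* all 7 matches were on the minus strand. Of these, 6 lay in peaks further into the variable exon, at *Pcdhb3*, *Pcdhb4*, *Pcdhb10*, *Pcdhb13*, *Pcdhb14* and *Pcdhb20*, and 1 in the 3150 bp peak of *Pcdhb12* that spans promoter and exon. No *Pcdhg* peak held the core motif, and 4 of 34 (11.8%) held a relaxed form, all on the minus strand and none at a promoter. The relaxed form lay in 18 of the 100 peaks and in 8 of the 54 promoter peaks (14.8%). Its share was 17.0% in all peaks and 30.3% in peaks of at least median level. At coding-gene promoters it was 34.3%, and 40.8% at those of at least that level. The form was thus about as frequent here as in all peaks and less frequent than in the other 3 sets. A match is a run of letters and says nothing on binding. The absence of these letters in a peak does not show that CTCF was bound there without a motif.

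The comparison of *Smchd1* del/del with control NSCs asked how CTCF occupancy at these genes differs without SMCHD1. The null was higher at most *Pcdha* and *Pcdhb* promoters and lower at most *Pcdhg* promoters. At *Pcdhb* promoters the median difference was 0.54 on the log2 scale (1.45-fold), with 20 of 21 above 0, and with a pseudocount of 1 read per M added before the log it was 0.34, again with 20 of 21 above 0. In *Pcdha* it was 0.32 (1.25-fold), with 12 of 15 above 0, and in *Pcdhg* -0.20 (0.87-fold), with 6 of 18 above 0. Over all peaks the median was -0.04 and 46.6% lay above 0, and over coding-gene promoters the median was -0.04 and 44.1% lay above 0. The null exceeded control by more than 2 counting SE at 17 of 21 *Pcdhb* promoters, 10 of 15 in *Pcdha* and 1 of 18 in *Pcdhg*, against 17.9% of coding-gene promoters. It fell short by more than 2 counting SE at 0, 2 and 6 of them, against 23.9% of coding-gene promoters. For all peaks these shares were 17.1% and 17.8%.

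Among alternate *Pcdha* genes, the null was higher at 12 of 13 promoter peaks (median 0.35). Of the C-type genes with a promoter peak, *Pcdhac1* and *Pcdhac2* were below control and *Pcdhgc3* was level with it. *Pcdha3* had the highest difference among *Pcdha* promoters, at 0.81 in control and 1.59 in the null (0.78 ± 0.13), with MommeD43-GFP near control at 0.67. *Pcdha4* (0.64 ± 0.09) and *Pcdha11* (0.71 ± 0.19) were next to it in size, and *Pcdha5* (-0.01 ± 0.16) was the alternate gene not above control. The lowest promoter was *Pcdhac2* (-0.41 ± 0.11), and *Pcdhac1* was at -0.16 ± 0.06 and *Pcdhgc3* at -0.02 ± 0.07. The median difference was 0.34 at *Pcdha* promoter peaks with the core motif and 0.30 at those without.

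Most *Pcdhb* promoters were higher in the null, from *Pcdhb2* to *Pcdhb20*. *Pcdhb20* was furthest above control, at -1.23 in control NSCs, -0.53 with the point mutation and -0.21 in the null (1.03 ± 0.25). *Pcdhb11* (chr18:37421101-37422600) followed, at 0.93 ± 0.10, with *Pcdhb3* (0.41, 0.92 and 1.35 in the 3 columns, 0.93 ± 0.14) and *Pcdhb7* (0.21, 0.65 and 1.12, 0.91 ± 0.15). At *Pcdhb3* and *Pcdhb7* MommeD43-GFP lay between control and the null, and at *Pcdhb11* it lay below both. *Pcdhb18* was the promoter not above control (-0.02 ± 0.21). At the 3′ end of the family, *Pcdhb21* (0.18 ± 0.19) and *Pcdhb22* (0.07 ± 0.18) were above control by less than their counting SE. The wide peaks of *Pcdhb8* and *Pcdhb12*, which take in most of the exon as well as the promoter, were at 0.26 ± 0.08 and 0.30 ± 0.10.

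Of the *Pcdhg* promoters, those lower in the null lay mostly towards the 3′ end of the alternate genes, a split made after the values were seen. From *Pcdhga6* to *Pcdhga12*, 8 of 9 promoter peaks were below control (median -0.24), and from *Pcdhga1* to *Pcdhga5* 3 of 8 were (median 0.07). *Pcdhga6* was the lowest, at 0.61 in control, 0.67 with MommeD43-GFP and -0.10 in the null (-0.71 ± 0.18). *Pcdhgb7* was at 1.76, 1.92 and 1.15 (-0.62 ± 0.12) and *Pcdhga2*, at the 5′ end, at 1.95, 1.61 and 1.43 (-0.53 ± 0.11). The exception among the 3′ genes was *Pcdhgb8*, at 1.76, 2.20 and 2.18 (0.42 ± 0.10), the highest among *Pcdhg* promoters and equally high in MommeD43-GFP. The median was -0.20 over *Pcdhga* promoter peaks (3 of 11 above 0) and -0.05 over *Pcdhgb* promoter peaks (3 of 6 above 0), the latter close to that of all peaks.

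**Figure D2:**
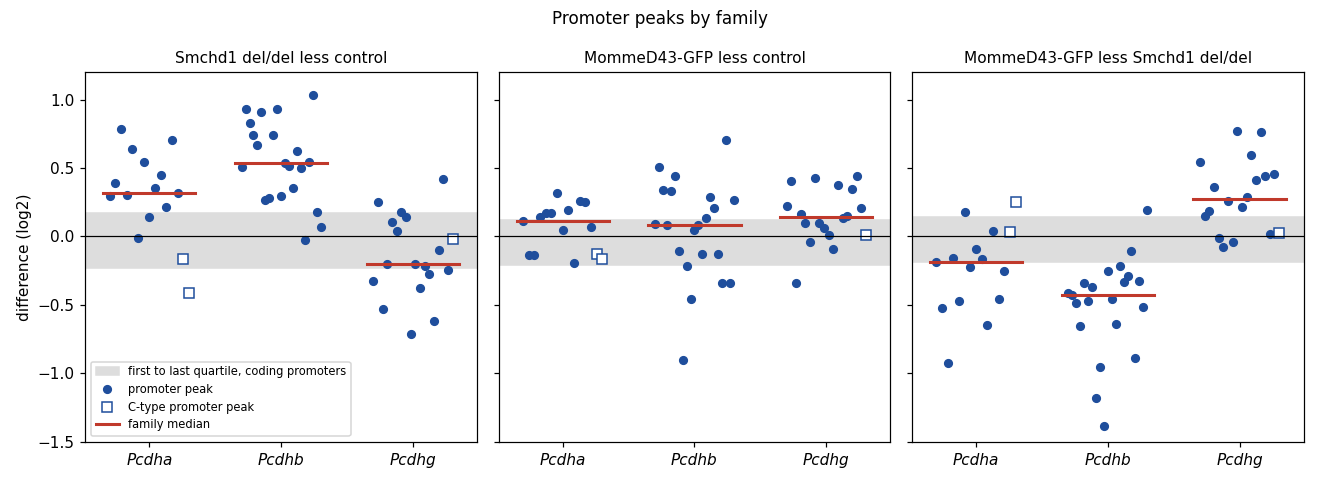
Difference in CTCF level (log2, y axis) at each promoter peak by family (x axis) in the 3 comparisons, with C-type genes as open squares, the family median as a line and the range between the first and the last quartile of coding-gene promoter peaks shaded. In *Smchd1* del/del less control the medians are 0.32, 0.54 and -0.20 for *Pcdha*, *Pcdhb* and *Pcdhg*, in MommeD43-GFP less control they are 0.11, 0.09 and 0.14, and in MommeD43-GFP less *Smchd1* del/del they are -0.19, -0.43 and 0.27.

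In the *Pcdhb* genes with a separate peak further along the exon, the null was higher at the promoter and not at that exon peak. In 8 genes a promoter peak and a separate peak further along the same exon could be compared, *Pcdhb2*, *Pcdhb3*, *Pcdhb4*, *Pcdhb10*, *Pcdhb13*, *Pcdhb14*, *Pcdhb19* and *Pcdhb20*. Their promoter peaks were centred a median of 349 bp past the start and their exon peaks 2061 bp past it. The promoter differences had a median of 0.64 and the exon differences one of -0.23. Of the 8 exon peaks, 3 were below control by more than 2 counting SE and 0 above it by as much. The promoter difference was the greater in 8 of 8 genes, by 0.68 to 1.31 (median 0.89), whereas over 1799 other coding genes with a promoter peak and a further peak within 3.5 kb it was the greater in 50.0%, with a median of 0.00. Those genes differ from the *Pcdhb* pairs in base composition, with the promoter peak richer in GC than the further peak by a median of 3.11 percentage points. This comparison was chosen after the values were seen.

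*Pcdhb13* showed the split within about 3 kb: its promoter had 0.51 in control, 0.59 with MommeD43-GFP and 1.05 in the null (0.54 ± 0.15), and its exon peak, which holds the core motif, at 1.27, 0.70 and 0.61 (-0.66 ± 0.14). At *Pcdhb10* the promoter was at -0.13, -0.35 and 0.61 (0.74 ± 0.18) and the exon peak at 1.69, 1.34 and 1.43 (-0.26 ± 0.11). At *Pcdhb20* the exon peak was at 0.46, 0.13 and 0.18 (-0.28 ± 0.17), against 1.03 ± 0.25 at its promoter. *Pcdhb14* had the strongest exon peak of the 3 families, at 1.89, 1.91 and 1.67 (-0.21 ± 0.11), and a promoter at 0.65, 0.52 and 1.17 (0.51 ± 0.14). Over the whole peak, the exon value was the higher of the pair in control NSCs at these 4 genes, and in the null it was still the higher at *Pcdhb10*, *Pcdhb14* and *Pcdhb20* but not at *Pcdhb13*. *Pcdha* had 4 such genes, of which *Pcdha3*, *Pcdha9* and *Pcdha11* had the greater difference at the promoter (median over the 4 genes 0.63) and *Pcdha2* did not. *Pcdhg* had 3 (median 0.11), and both peaks of *Pcdhga6* were lower in the null (-0.71 ± 0.18 and -0.47 ± 0.17).

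GC content moved with this split. The promoter peaks of the 8 *Pcdhb* genes had a median GC content of 44.9% and the exon peaks one of 52.6%. Over the peaks whose level was at least the median of all, the null less control difference ran from 0.39 in the lowest of 20 bins of GC content to -0.16 in the bin below the highest. After each difference was centred within such bins the promoter was still the greater in 8 of 8 genes, by a median of 0.66, or of 0.60 with bins made from those higher peaks. The *Pcdhb* promoter median was then 0.48 or 0.43, that of *Pcdha* 0.42 or 0.43 and that of *Pcdhg* -0.11 in both. Before centring, the C-type promoters *Pcdhac1*, *Pcdhac2* and *Pcdhgc3* were at -0.16, -0.41 and -0.02. The bins of higher peaks with their GC content had medians of -0.16, -0.14 and -0.14. Sequence shared between neighbouring genes also bears on where reads map: stretches of read length that recur around the clusters were found in 12 of 15 *Pcdha*, 9 of 21 *Pcdhb* and 5 of 18 *Pcdhg* promoter peaks. In promoter peaks with no such stretch the null less control median was 0.51 in *Pcdhb* (12 peaks) and -0.10 in *Pcdhg* (13 peaks). In *Pcdha* the 3 such peaks were *Pcdhac1*, *Pcdhac2* and a small peak before *Pcdha4*, with a median of -0.16, so for the alternate *Pcdha* genes the part of shared sequence in the result was not tested.

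**Figure D3:**
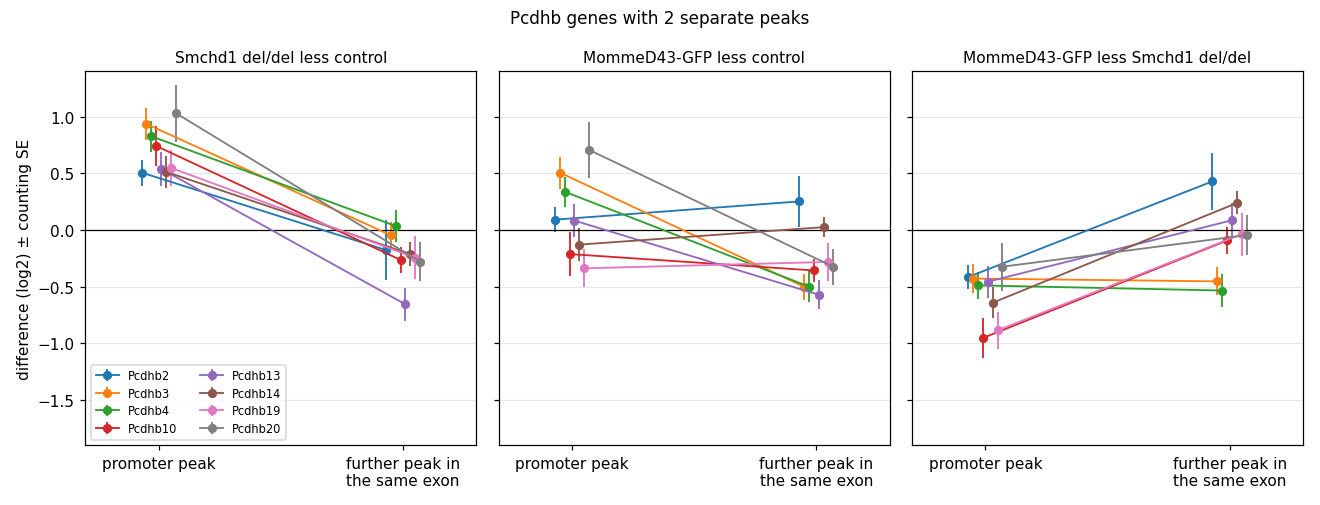
Difference in CTCF level (log2 ± counting SE, y axis) at the promoter peak and at the further peak in the same exon (x axis) for the 8 *Pcdhb* genes that have both, 1 line per gene, in the 3 comparisons. In *Smchd1* del/del less control every line falls from promoter to exon (medians 0.64 and -0.23). In MommeD43-GFP less control 5 of 8 fall, and in MommeD43-GFP less *Smchd1* del/del 2 of 8 fall.

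The comparison of MommeD43-GFP with control NSCs asked what the point mutation does to CTCF occupancy. Promoter differences were small in each family, with medians of 0.11 in *Pcdha* (10 of 15 above 0), 0.09 in *Pcdhb* (13 of 21) and 0.14 in *Pcdhg* (15 of 18), against 50.8% of all peaks and 40.1% of coding-gene promoters above 0. MommeD43-GFP exceeded control by more than 2 counting SE at 3, 5 and 5 promoters in the same order, against 12.4% of coding-gene promoters, and fell short by as much at 1, 3 and 1, against 24.9%. With GC content taken out by the bins of the higher peaks, the *Pcdhb* median was -0.02, so its direction depended on that step.

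Among *Pcdha* promoters, *Pcdha6* was highest against control (2.28 in control, 2.60 in MommeD43-GFP, 0.32 ± 0.08) and *Pcdha9* lowest (0.19 and -0.01, -0.20 ± 0.17). *Pcdhac1* and *Pcdhac2* were at -0.13 ± 0.06 and -0.16 ± 0.09, and *Pcdhgc3* at 0.01 ± 0.06. In *Pcdhg* the highest promoter was *Pcdhgb8* (0.44 ± 0.09), with *Pcdhgb2* next (0.68 and 1.11, 0.43 ± 0.13), and the lowest was *Pcdhga2* (-0.34 ± 0.09). *Pcdhb* varied most, from -0.90 ± 0.20 at *Pcdhb9* (0.04 in control, -0.86 in MommeD43-GFP, 0.32 in the null) to 0.71 ± 0.24 at *Pcdhb20*. From *Pcdhb9* to *Pcdhb11* the 3 promoters were below control in MommeD43-GFP (-0.90, -0.21 ± 0.19 and -0.45 ± 0.11) and above it in the null (0.28 ± 0.18, 0.74 ± 0.18 and 0.93 ± 0.10). The exon peaks of *Pcdhb3* and *Pcdhb4* were both at -0.50 (± 0.12 and ± 0.14), while their promoters were at 0.51 ± 0.14 and 0.34 ± 0.13. Over the 8 *Pcdhb* pairs the promoter difference was the greater in 5, by a median of 0.40, against 41.9% of the 1799 other genes. Between the mutants it was the greater in 2 of 8, against 43.8%.

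**Figure D4:**
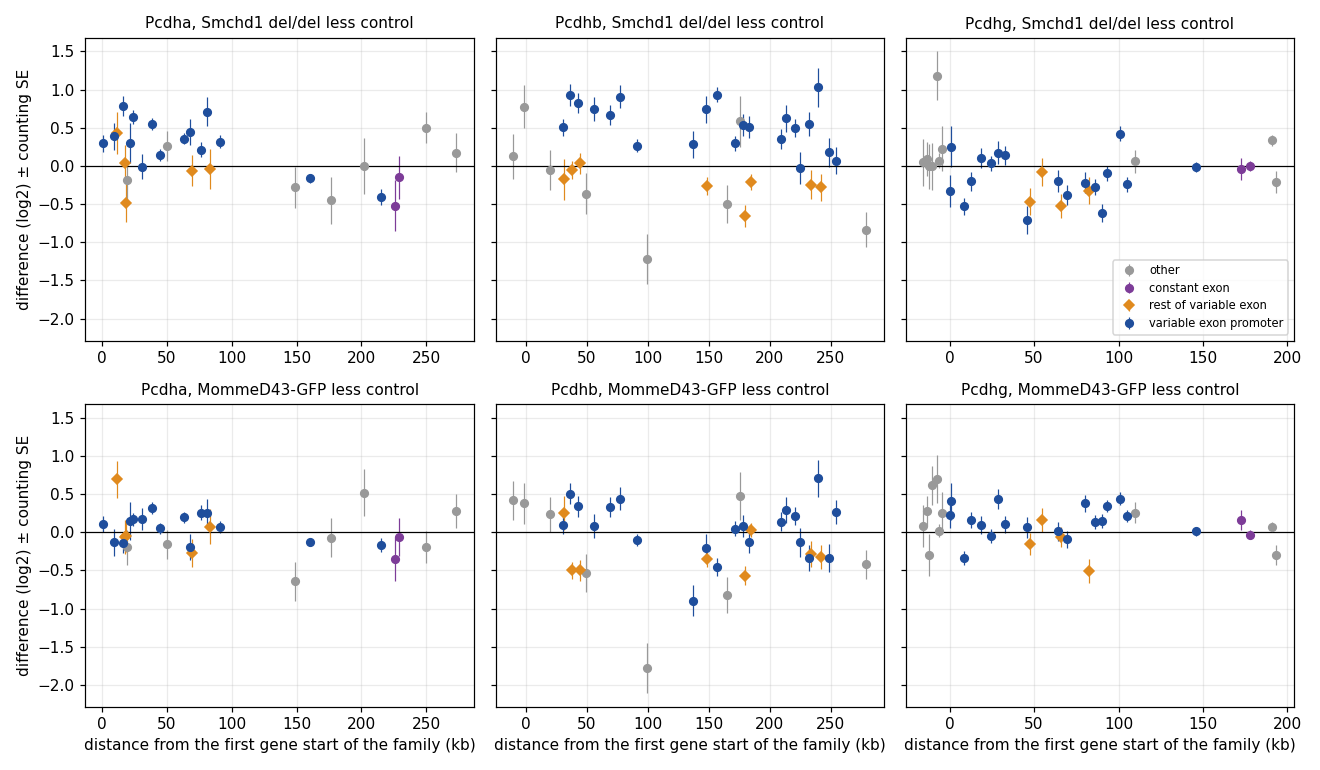
Difference in CTCF level (log2 ± counting SE, y axis) at each of the 100 peaks by distance from the first gene start of its family (kb, x axis), for *Smchd1* del/del less control (top) and MommeD43-GFP less control (bottom), with blue circles for promoter peaks, orange diamonds for the rest of variable exons, purple for constant exons and grey for other positions. In *Pcdhb*, most blue circles lie above 0 in the top panel (median 0.54). They lie on both sides of 0 in the bottom panel (median 0.09), and the grey point at -1.22 and -1.78 is the peak past *Pcdhb8*.

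MommeD43-GFP was then set against *Smchd1* del/del NSCs, which asks where the point mutation differs from loss of the protein. This comparison shares its columns with the other two, so its values are given for the size of the gap between the mutants and not as further support. MommeD43-GFP was the lower at 20 of 21 *Pcdhb* promoters (median -0.43) and at 11 of 15 *Pcdha* promoters (median -0.19), and the higher at 15 of 18 *Pcdhg* promoters (median 0.27), against 53.9% of all peaks and 46.1% of coding-gene promoters above 0. MommeD43-GFP was the lower by more than 2 counting SE at 17 of 21 *Pcdhb*, 8 of 15 *Pcdha* and 0 of 18 *Pcdhg* promoters (19.8% of coding-gene promoters) and the higher by as much at 0, 1 and 9 (13.8%). The widest gap was at *Pcdhb11* (-1.39 ± 0.10), followed by *Pcdhb9* (-1.18 ± 0.21), *Pcdhb10* (-0.95 ± 0.18) and *Pcdha3* (-0.92 ± 0.13). On the other side, *Pcdhga6* (0.77 ± 0.18) and *Pcdhgb7* (0.77 ± 0.11) had the widest gaps. *Pcdhb22* (0.19 ± 0.17), *Pcdhac2* (0.25 ± 0.11) and *Pcdhga4* (-0.08 ± 0.10) were the promoters at the opposite end in their families.

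Few of the 100 peaks were 2-fold apart in any comparison. For the null against control 2 were at least 2-fold higher (background 3.31% of all peaks), the *Pcdhb20* promoter (background 1.51% of coding-gene promoters) and a weak peak upstream of *Pcdhg* (chr18:37653901-37654350), at -1.97, -1.27 and -0.79 (1.18 ± 0.32). Only 1 was at least 2-fold lower (background 1.85%), past *Pcdhb8* (chr18:37363801-37364400), at -0.72, -2.50 and -1.94 (-1.22 ± 0.33). That peak was also the single one at least 2-fold lower in MommeD43-GFP than in control (-1.78 ± 0.33, background 0.718%), and 44.1% of its read-length stretches recurred nearby. None was at least 2-fold higher there (background 2.08%). Between the mutants 2 were at least 2-fold lower in MommeD43-GFP (background 1.08%), the promoters of *Pcdhb9* and *Pcdhb11* (background 0.531% of coding-gene promoters), and none was higher (background 1.26%).

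Constant exons differed more in level than between genotypes. In *Pcdhg* the last constant exon (chr18:37837651-37842150) held one of the strongest peaks of the 3 families, at 3.25, 3.22 and 3.26 in the 3 columns (0.00 ± 0.06), and the middle one was at 0.86, 1.02 and 0.82. In *Pcdha* the peaks on the first and middle constant exons were weak, at -1.25, -1.59 and -1.77, and at -0.97, -1.03 and -1.12. Neither of these differed by more than 2 counting SE in the null (-0.52 ± 0.33 and -0.15 ± 0.28), although the first was the lowest of the family. No peak overlapped the last *Pcdha* constant exon or the first of *Pcdhg*.

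Beyond the exons, the interval between the middle and last *Pcdha* constant exons, where HS7 is known to lie, held 1 peak (chr18:37179901-37180650). Its values were -0.40, -0.59 and 0.10, the null being the highest (0.50 ± 0.20 against control). The peak downstream of the last exon and within the 20 kb flank, on the side of HS5-1, was weak and close in the 3 genotypes (-0.88, -0.61 and -0.71). On the same side but outside the span, a peak 29.1 kb past the last *Pcdha* gene (chr18:37216801-37218900) was strong. It was at 2.09, 2.26 and 2.49 (0.40 ± 0.09 in the null). None of these peaks was matched to an enhancer here, since no enhancer annotation was used. Downstream of *Pcdhg*, a peak within the neighbouring gene *Diaph1* (chr18:37851151-37854000), strong at 1.33 per kb, was at 2.71, 2.78 and 3.04 (0.34 ± 0.07 in the null). The next was at 0.99, 0.70 and 0.78. It was below control by more than 2 counting SE in MommeD43-GFP (-0.29 ± 0.13) but not in the null (-0.21 ± 0.14). Upstream of *Pcdhg*, a strong peak (chr18:37654651-37656750) hardly differed, at 2.04, 2.05 and 2.10, and the second in that class was at -0.40, -0.12 and -0.31. The strongest peaks between variable exons lay past *Pcdhga12*, at 0.66, 0.91 and 0.72, and past *Pcdha7*, at -0.15, -0.31 and 0.11.

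Other peaks away from promoters set the remaining extremes of the families, most of them weak. In MommeD43-GFP less control, the exon peak of *Pcdha2* was highest in *Pcdha* (-1.24 in control, -0.55 in MommeD43-GFP, 0.69 ± 0.24), a peak past *Pcdha12* lowest (-0.78 and -1.43, -0.65 ± 0.26) and the exon peak of *Pcdhgb6* lowest in *Pcdhg* (0.48 and -0.03, -0.51 ± 0.16). Between the mutants, a peak past *Pcdhac1* (0.51 ± 0.33) and the exon peak of *Pcdhb2* (0.43 ± 0.25) were highest in their families, neither by more than 2 counting SE.

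The protocadherin genes outside the clusters served as a comparison of related genes. Of a list of 12 (*Pcdh1*, *Pcdh7*, *Pcdh8*, *Pcdh9*, *Pcdh10*, *Pcdh11x*, *Pcdh12*, *Pcdh15*, *Pcdh17*, *Pcdh18*, *Pcdh19* and *Pcdh20*), 10 had a promoter peak, 12 peaks in all. Their median differences were -0.04 for the null less control (4 of 12 above 0), -0.18 for MommeD43-GFP less control and -0.19 between the mutants. *Pcdh7* had the highest value, at 3.87, 3.63 and 3.81 in control, MommeD43-GFP and the null. The values of *Pcdh1*, at 3.35, 2.92 and 3.17, also lay highest in control, while *Pcdh18* was highest in the null, at 1.37, 1.44 and 1.90 in its higher peak.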

How the data were processed

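The authors made CTCF ChIP-seq libraries from NSCs of each genotype (75 bp reads). Per the labels and the study's methods, reads were processed with Trim Galore 0.4.4, cutadapt 2.9, FastQC 0.11.8, Bowtie2 2.3.4.1 and SAMtools 1.7 and mapped to GRCm38. SeqMonk was used to call peaks per genotype, its libraries together, and overlapping peaks were joined. The authors deposited log2 reads per M library reads, averaged over a genotype's libraries. Mapping was with default settings, under which Bowtie2 reports a single alignment for a read with several equal matches. A later filter on such reads and the handling of duplicates are not given in the sources used here.

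Reads were decoded by taking the lowest value of each column as a peak with no read in any library (0 entered as 0.9). This assumption gave geometric mean library sizes of 41.7, 49.2 and 50.0 M reads for control, MommeD43-GFP and *Smchd1* del/del. The counting SEs rest on it. The decoding of low values used a tolerance of 0.01. Gene starts (1 per gene, of the coding transcript furthest 5′) and exons came from GENCODE M21. A constant exon is shared by at least 3 genes. Read-length stretches of 75 bp in a peak were compared with the sequence of the 3 clusters and 50 kb around them, on both strands. Differences of log2 values, medians and counts were computed with no test. Peaks named are the 3 highest promoters, the highest and lowest differences, C-type genes and *Pcdhb1*, constant exons, the 2 highest of each other position class and every peak 2-fold apart, with *Pcdhb* pairs and other examples added after their values were seen. Scripts were tested on simulated data. Members, lists and thresholds were chosen with earlier results of these data known. Python 3.11.15, numpy 2.4.6, pandas 2.3.3, statsmodels 0.14.6 and matplotlib 3.10.9 were used.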

Additional observations from a re-analysis of the deposited data

How the results depend on the processing

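No family, promoter or pair median left its spread except where given here. The spread is a 95% interval of the median over its own peaks, which are not replicates. Some medians changed sign within it. For MommeD43-GFP less control, *Pcdha* promoters went from 0.11 to -0.13 in the 3 peaks without recurring stretches. Between the mutants these went from -0.19 to 0.03. All *Pcdhb* peaks went from 0.02 to -0.12 among peaks of at least median level in MommeD43-GFP less control. They were also below 0 with quantile normalization, a loess trend, either set of GC bins and no flanks (-0.01 to -0.07). In the same comparison, all *Pcdha* peaks went from -0.05 to 0.06 and 0.07 with the GC bins and 0.05 at median level and above. *Pcdhb* promoters went to -0.02 with the bins of higher peaks. All *Pcdhg* peaks in *Smchd1* del/del less control went from -0.03 to 0.03 with columns centred. No paired analysis was possible because the columns are pooled by genotype, and leaving out single libraries was not possible for the same reason. Of the 300 peak differences, 5 moved by more than counting error with bins of GC content, 7 with bins made from peaks of at least median level, 16 with a pseudocount of 1 read per M and none with the other scalings.

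Counts of peaks 2-fold apart were unstable, being small. MommeD43-GFP less control gave 0 lower peaks with the pseudocount or among peaks of at least median level, and 4 higher and 4 lower at 1.5-fold. *Smchd1* del/del less control gave 1 higher peak with either set of GC bins or without flanks, 0 higher and 0 lower with the pseudocount or at median level and above, and 14 higher and 5 lower at 1.5-fold. Between the mutants, 4 were lower after a loess trend and 1 with the pseudocount, and 4 were higher and 9 lower at 1.5-fold.

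The *Pcdhb* promoter median between the mutants was -0.29 with the pseudocount. The *Pcdha* promoter median of the null less control was -0.16 in the 3 promoter peaks without recurring stretches. For the 8 *Pcdhb* pairs the median by which the promoter exceeded the exon in the null less control was 0.66 and 0.60 with the GC bins and 0.54 with the pseudocount, and between the mutants 1 of 8 genes was above 0 with the pseudocount. Of the 10 highest promoter peaks, 6 were among the 10 highest per kb. The GC bins of higher peaks, the peaks without recurring stretches and the pairs were chosen after seeing the data.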

Other observations

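Peaks within 50 kb of the clusters or between them, but outside the spans, were also read. Of 23 such peaks, 11 were above and 12 below control in the null (median -0.05). The lowest lay between *Pcdhb* and *Pcdhg* (chr18:37552801-37553550, -0.94 ± 0.25), between *Pcdha* and *Pcdhb* (chr18:37240051-37240950, -0.87 ± 0.25) and upstream of *Pcdha* (chr18:36880351-36881100, -0.69 ± 0.26). The 3 with a core CTCF motif had it on the minus strand. One lay 29.1 kb past the last *Pcdha* gene (chr18:37216801-37218900), at 2.09 in control NSCs, 2.26 with MommeD43-GFP and 2.49 in the null (0.40 ± 0.09 for the null less control). The others lay 40.0 and 44.8 kb past *Pcdhg*, at 2.66, 2.38 and 2.87 (0.21 ± 0.07) and at 1.65, 1.86 and 2.38 (0.72 ± 0.10). A peak between *Pcdhg* and these, 35.1 kb past the last gene (chr18:37876951-37878300), was at 0.71, 1.17 and 1.66, with the null highest (0.95 ± 0.13), and its neighbour at 0.57, 0.84 and 1.19 (0.62 ± 0.14). The peaks named were chosen after their values were seen. The GC content of the 5 named peaks that were higher in the null, 41.3% to 44.7%, was as low as that of *Pcdhb* promoters, and the part of GC content in their differences was not tested.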
